A study of Saccharomyces cerevisiae with 68 samples.

Results

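Newly made (nascent) RNA of yeast lacking Spt3 was compared with that of yeast lacking Gcn5, using the 2 arrays of the spt3 strain and the 4 arrays of the gcn5 strain among the 68 arrays of the series. The 6 arrays were chosen by their titles. All strains derive from FY406, a Saccharomyces cerevisiae parent strain, and each deletion removes the whole named gene as far as the labels say: spt3 lacks SPT3, gcn5 lacks GCN5, and the wild type (WT) carries neither deletion. Cultures of 100 mL grew at 30 °C in YPD, a rich medium, until the OD600 was near 0.8, and every culture, WT included, received 5 mM 4-thiouracil for 6 min before freezing. This uracil analogue enters RNA as it is made, so that the labelled molecules can be biotinylated and separated from older RNA. Wild-type Schizosaccharomyces pombe cells, grown at 31 °C and labelled alike, were mixed into each sample before extraction as a common reference. The labels state a pair of independent biological replicates for each deletion strain, whereas gcn5 has 4 arrays. The labels do not say whether these repeat fewer cultures, so p-values measure the spread between arrays, part of which may be technical.

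SAGA is a large coactivator that transcription activators bring to promoters. Its Gcn5 subunit acetylates lysines of histone H3 and so opens chromatin, while Spt3, next to Spt8, contacts the TATA-binding protein (TBP) and helps it onto or off the core promoter. Both subunits sit in the same complex, and genes such as ARG1, PHO5, PHO84 and HO have long been used to study them. The comparison sets the loss of the TBP contact against the loss of the acetyltransferase in the same growth conditions. Values, called levels below, are log2 array signals centred on the median S. cerevisiae gene of the array, and differences are spt3 minus gcn5 on that scale. A negative difference means that the gene was lower in spt3 than in gcn5, whichever of the strains departed from WT. Levels of different genes are not compared with each other, because each probe set has its own brightness.

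Before the genes, the arrays themselves need a description. Correlation between S. pombe profiles was used to divide the arrays into 2 classes, a number fixed in advance, called batches below. The spt3_gcn5 double mutant and WT replicates 7 and 8 fell in a class of their own. The other class includes all spt3 and gcn5 arrays and WT replicates 3 to 6. The difference between spt3 and gcn5 therefore lies within 1 of these classes, which may itself hold further batches. Each value against WT is given over all 6 WT arrays used and, as "within the batch", against WT replicates 3 to 6 alone. Inside the first batch, gcn5 replicate 2 stood apart from its group. Its S. pombe profile had a Spearman correlation of 0.906 to 0.920 with the other gcn5 arrays, which reached 0.981 to 0.986 among themselves, and of 0.942 to 0.946 with the spt3 arrays. Counts are therefore also given without gcn5 replicate 2. The spt3 arrays, at 0.965 with each other, stood apart as well. They reached 0.886 to 0.923 with gcn5 replicates 1, 3 and 4, and 0.816 to 0.886 with WT replicates 3 to 6. Those 3 gcn5 arrays reached 0.936 to 0.964 with the same WT arrays. The deletion and this difference in S. pombe profile go together in these arrays and cannot be told apart. The same fit over the genes of S. pombe, whose cells carry no deletion, called 3 of 1305 (0.230%). That count depends on the fit, which has no batch term, so it is not a rate of false calls. With batch as a block it was 288, beside 1239 of 4087 S. cerevisiae genes. In a fit of the compared groups alone it was 13, beside 796. Without gcn5 replicate 2 that fit called 706, beside 1897.

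The deleted genes matched their labels. The level of SPT3 was -7.03 and -6.63 in the spt3 arrays, 0.27, 0.10, 0.15 and 0.17 in the gcn5 arrays and -0.58 to 0.47 in WT. The level of GCN5, which the filter on low signals keeps out of the test, was -4.22, -5.50, -6.72 and -4.31 in the gcn5 arrays, -0.68 and -0.56 in the spt3 arrays and -0.76 to -0.35 in WT. Neither strain therefore lost the transcript of the other's subunit. Most mating-type markers read as type a. By the mean over the WT arrays used, the a-specific genes MFA1, MFA2 and STE2 lay at the 93.1, 94.2 and 92.8 percentiles of all genes. STE6, BAR1 and AGA2 lay at 84.4, 79.3 and 84.5, but ASG7, also a-specific, at 23.1. Of the genes that alpha cells express, MF(ALPHA)1 and STE3 lay at the 0.97 and 4.4 percentiles. In no spt3 or gcn5 array did either exceed a level of -2.845. MF(ALPHA)2 lay at 15.7 and SAG1 at 29.0, above ASG7. Each probe set has its own brightness, so these percentiles are a rough guide.

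Of 4087 genes tested with limma, 602 (14.7%) differed between the strains at a Benjamini-Hochberg adjusted p under 0.05. Lower in spt3 were 330 (8.07%), among them SPT3 itself, and higher were 272 (6.66%). Large differences lay mainly on one side: 108 of the lower genes and 34 of the higher ones differed by more than 2-fold. Apart from SPT3, called differences ran from -3.77 for TIR3 to 2.60 for HO, and the standard error of a difference was 0.20 in the median gene. That error, and the p-value with it, pools the spread of all groups in the fit, WT of both batches included. It is not the spread of the spt3 and gcn5 arrays alone. In HO it was 0.37, against 0.14 in a fit of these groups alone, and in TIR2 0.26 against 0.36. All spt3 arrays lay below all gcn5 arrays in 875 genes (21.4%) and above them in 956 (23.4%), and the arrays overlapped in 17 of the 602 called genes. Without gcn5 replicate 2, 424 genes were lower (10.4%) and 283 higher (6.92%), and 314 of the 330 and 244 of the 272 were among them. Leaving out a spt3 array, which leaves 1, brought the count to 246 without replicate 1 and 215 without replicate 2.

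Set against WT in the same fit, 547 genes differed in spt3 (13.4%), 194 higher (4.75%) and 353 lower (8.64%), and 834 in gcn5 (20.4%), 342 higher (8.37%) and 492 lower (12%). The spt3 count fell to 203 without spt3 replicate 1 and to 101 without replicate 2. In a fit of the compared groups alone it was 92, and the gcn5 count was 258. Both contrasts use the same WT arrays, so their values stand side by side only. The 330 genes lower in spt3 than in gcn5 had a median difference from WT of -0.51 in spt3 and 0.32 in gcn5. For the 272 higher genes these medians were 0.32 and -0.31. These are descriptions, since the genes were chosen by the difference of both strains.

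All of these values are relative to the S. cerevisiae median of each array. Against the S. pombe reference, that median was 0.78 and 0.66 in the spt3 arrays and 1.24 to 1.46 in the gcn5 arrays, where WT arrays ran from 1.18 to 2.46 (1.18 to 2.07 within the batch). The spt3 arrays thus lay below every gcn5 and every WT array. The difference between spt3 and gcn5 was -0.63, or 64.8% of the gcn5 signal, with p = 0.0667 in a two-sided exact permutation test, the smallest p that 2 arrays against 4 can give. It was -0.38 (p = 0.2 by the exact permutation test) when scaled to the brightest 25% of S. pombe genes. On that scale both spt3 arrays, at -0.53 and -0.58, still lay below every gcn5 array, but WT replicate 3 lay lower, at -0.62. With every gene set against S. pombe, 1411 genes were lower in spt3 and 4 higher, namely HO, YAR068W, PER33 and IMD2, so that "higher" below means higher relative to the median gene. Set this way, each difference below would be lower by 0.66, and the signs of KAR4, ARG2, TAF1, TAF12 and RPN3 turn, to -0.17, -0.27, -0.024, -0.27 and -0.0486. Less labelled RNA in each cell and fewer S. cerevisiae cells in the mix cannot be told apart in such samples. TAF1 lost its call without spt3 replicate 1 (adjusted p = 0.066) and TAF12 without spt3 replicate 1 or 2 or gcn5 replicate 1 (adjusted p = 0.0526 to 0.243).

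**Figure D1:**
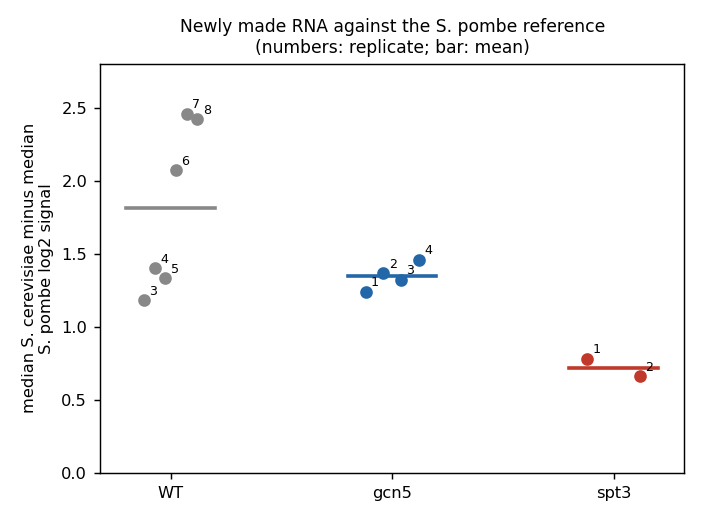
Median log2 signal of S. cerevisiae genes minus that of S. pombe genes (vertical axis) in each newly made RNA array of WT, gcn5 and spt3 (horizontal axis), with numbers for the replicate and bars for the mean. The spt3 arrays, at 0.66 and 0.78, lie below the gcn5 arrays at 1.24 to 1.46, and WT replicates 6 to 8 lie above both.

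Of the 12 genes with the largest falls in spt3 against gcn5, TIR3, PRY1 and EXG1 encode cell wall or secreted proteins, FIT2 and FET3 act in iron uptake, and DDR2, HSP12 and GLK1 respond to stress or glucose shortage. The remaining 4 are PCL5, RGS2, PRY3 and RTS3. On the other side stood HO, SER3, MFA1 and PHO84, with PER33, REX2, RMP1, SRD1, SPR6, CPR2, YAR068W and IMD2. All were chosen among called genes whose spt3 and gcn5 arrays do not overlap, so for these genes that separation is no result below. IMD2, an IMP dehydrogenase, is read by a probe set shared with near-identical copies, so its value is uncertain. It stood at 1.57 ± 0.47, adjusted p = 0.0248. YAR068W, an uncharacterised reading frame, stood at 1.89 ± 0.26, adjusted p = 2.56e-05. IMD2 lost its call without spt3 replicate 1 or 2 or gcn5 replicate 2 (adjusted p = 0.0525 to 0.293).

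**Figure D2:**
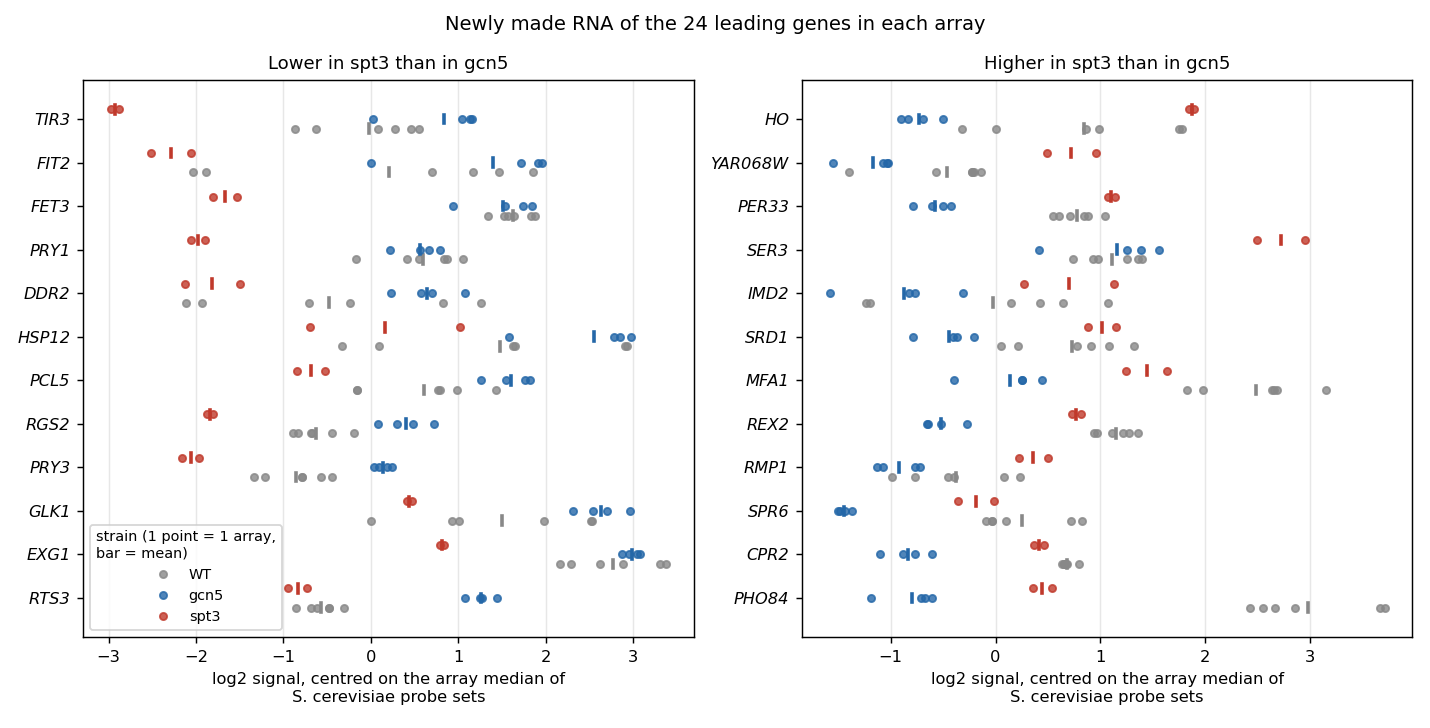
Level in newly made RNA (log2 signal centred on the array median, horizontal axis) of the 12 genes with the largest falls (left) and the 12 with the largest rises (right) of spt3 against gcn5, 1 point for each array of spt3, gcn5 and WT and a bar for the mean. In all 24 genes the spt3 and gcn5 arrays do not overlap, which the choice of genes required, and WT lies nearer to gcn5 in FET3 and PRY1 but nearer to spt3 in PER33, REX2 and CPR2.

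Iron uptake genes were among the most different. When iron is short, the activators Aft1 and Aft2 switch on a surface system in which reductases, the ferroxidase Fet3 with its permease Ftr1, siderophore transporters such as Sit1, and cell wall mannoproteins such as Fit2 bring iron into the cell. Of 30 listed genes of this regulon 20 were bright enough to be tested, and 6 were lower in spt3 (30%, against 8.07% of all genes), 1 was higher and 13 did not pass. Their median difference was -0.20, beside -0.02 over all genes. The level of FET3 was -1.53 and -1.81 in the spt3 arrays, 1.54, 0.94, 1.74 and 1.85 in the gcn5 arrays, and 1.34, 1.60 and 1.88 as the lowest, median and highest WT value. Both spt3 arrays were far below every other array, and the gcn5 arrays reached into the WT range. That is a difference of -3.19 ± 0.29, adjusted p = 5.64e-08, or 9.1-fold less signal, with -3.30 ± 0.27 (adjusted p = 1.47e-08; -3.25 within the batch) for spt3 against WT and -0.12 ± 0.22 (adjusted p = 0.749; -0.06 within the batch) for gcn5.

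FIT2 fell further but with more spread. Its levels were -2.06 and -2.52 in the spt3 arrays, 1.71, 0.01, 1.96 and 1.91 in the gcn5 arrays, and -2.03, 0.93 and 1.86 as the lowest, median and highest WT value. The low WT values are those of replicates 7 and 8, in the other batch, and gcn5 replicate 2 lay below the other gcn5 arrays, yet both spt3 arrays were lower than all of them. The difference was -3.69 ± 0.79, adjusted p = 0.0025, and it was -4.15 without gcn5 replicate 2. Against WT, FIT2 stood at -2.50 ± 0.74 (adjusted p = 0.028; -3.59 within the batch) in spt3 and 1.18 ± 0.59 (adjusted p = 0.16; 0.10 within the batch) in gcn5. SIT1, a siderophore transporter, differed by -1.44 ± 0.25, adjusted p = 0.000363, and FTR1, the permease that works with Fet3, by -1.01 ± 0.15, adjusted p = 6.16e-05. In spt3 their differences from WT were -2.03 (-1.93 within the batch) and -1.12 (-1.19 within the batch), in gcn5 -0.59 (-0.50 within the batch) and -0.11 (-0.18 within the batch). Without gcn5 replicate 2 the list had 0 higher and 6 lower. FIT2 lost its call without spt3 replicate 2 (adjusted p = 0.054).

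Cell wall genes had more falls than any other list examined: of 28 tested genes 14 were lower in spt3 (50%) and 1 higher, with a median difference of -0.70. Without gcn5 replicate 2 there were 1 higher and 16 lower. The yeast wall is a mesh of glucan and chitin studded with mannoproteins, and the list spans enzymes that build or trim glucan as well as the mannoproteins themselves. TIR3, a mannoprotein of the family that cells put in the wall in cold or without oxygen, had the largest fall of all genes other than SPT3. Its level was -2.88 and -2.97 in the spt3 arrays, 1.04, 0.02, 1.14 and 1.15 in the gcn5 arrays, and -0.86, 0.18 and 0.56 as the lowest, median and highest WT value. Both spt3 arrays lay 2 log2 units or more below the lowest of the others. The difference was -3.77 ± 0.35, adjusted p = 6.6e-08 (13.6-fold lower), made up of -2.91 ± 0.33 (adjusted p = 1.68e-06; -3.27 within the batch) in spt3 against WT and 0.86 ± 0.26 (adjusted p = 0.0199; 0.50 within the batch) in gcn5. TIR2, of the same family, differed by -1.60 ± 0.26, adjusted p = 0.000175, and here the departure from WT was 1.12 (1.06 within the batch) in gcn5 and -0.48 (-0.54 within the batch) in spt3.

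PRY1 encodes a secreted sterol-binding protein. Its levels were -2.06 and -1.89 in the spt3 arrays, 0.56, 0.22, 0.67 and 0.80 in the gcn5 arrays, and -0.16, 0.70 and 1.05 as the lowest, median and highest WT value. The spt3 arrays were low, while gcn5 arrays lay inside the WT range, and the difference was -2.54 ± 0.26, adjusted p = 2.89e-07. EXG1, the main exo-glucanase of the wall, had levels of 0.83 and 0.79 in spt3 and 2.96, 2.88, 3.04 and 3.08 in gcn5, so that all gcn5 arrays were higher, at a difference of -2.18 ± 0.24, adjusted p = 5.39e-07. GAS1, which lengthens and links glucan chains at the cell surface, differed by -1.19 ± 0.17, adjusted p = 2.83e-05. Against WT, spt3 stood at -2.57 (-2.44 within the batch) for PRY1, -1.96 (-1.68 within the batch) for EXG1 and -1.30 (-1.22 within the batch) for GAS1, where gcn5 stood at -0.03 (0.10 within the batch), 0.22 (0.50 within the batch) and -0.11 (-0.03 within the batch). PMA1, the plasma membrane proton pump, from the list of genes used as SAGA models, was also lower in spt3, at -1.10 ± 0.24, adjusted p = 0.00259. PMA1 lost its call without spt3 replicate 2 (adjusted p = 0.128).

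Genes that act when mother and daughter separate, and those read in only one of the pair, moved both ways. After division, daughter cells express enzymes that dissolve the septum, and mother cells express HO, the endonuclease of mating-type switching. Of 18 tested genes of this list 7 were lower in spt3 (38.9%) and 2 higher, at a median of -0.43, and without gcn5 replicate 2 there were 3 higher and 7 lower. PRY3, a wall protein of the same family as PRY1, had levels of -2.15 and -1.96 in the spt3 arrays, 0.09, 0.24, 0.04 and 0.18 in the gcn5 arrays, and -1.34, -0.78 and -0.45 as the lowest, median and highest WT value. All spt3 arrays were below, and all gcn5 arrays above, every WT array, and the difference was -2.20 ± 0.18, adjusted p = 1.19e-08. DSE4, a daughter-specific glucanase, differed by -1.43 ± 0.25, adjusted p = 0.000308, and PIL1, which shapes membrane furrows called eisosomes and is no separation enzyme, by -0.99 ± 0.20, adjusted p = 0.00127. In mixed cultures, a lower share of cells at this stage and less RNA in each such cell cannot be told apart. PIL1 lost its call without spt3 replicate 2 (adjusted p = 0.0525).

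HO went the other way and had the largest rise of all genes tested. Its level was 1.85 and 1.89 in the spt3 arrays, -0.84, -0.50, -0.69 and -0.91 in the gcn5 arrays, and -0.32, 0.93 and 1.78 as the lowest, median and highest WT value. Both spt3 arrays were above every WT array and all gcn5 arrays below, a difference of 2.60 ± 0.37, adjusted p = 3.75e-05, or 6.08-fold. Against WT it was 1.03 ± 0.35 (adjusted p = 0.0532; 1.49 within the batch) in spt3 and -1.58 ± 0.28 (adjusted p = 0.000237; -1.12 within the batch) in gcn5. The WT arrays themselves differ by batch: replicates 3 to 6 ran from -0.32 to 0.99 and replicates 7 and 8 were at 1.75 and 1.78.

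Most phosphate genes tested fell in both mutants, and some differed between the strains. The activator Pho4 drives these genes when phosphate is short, and Pho84, the high-affinity transporter, and Pho5, a secreted acid phosphatase, are its best-known targets. Against WT, 9 of 11 tested genes were lower in spt3 and 10 in gcn5, beside 8.64% and 12% of all genes, and none was higher in either. Between the strains 3 were higher in spt3 and 1 lower (27.3% and 9.09%), at a median of 0.20. PHO84 had levels of 0.36 and 0.54 in the spt3 arrays, -0.71, -1.19, -0.67 and -0.61 in the gcn5 arrays, and 2.43, 2.76 and 3.71 as the lowest, median and highest WT value. Every mutant array was below every WT array, with gcn5 the lower of the strains by 1.24 ± 0.37, adjusted p = 0.027. Without gcn5 replicate 2 the list held 1 higher and 1 lower. PHO84 lost its call without spt3 replicate 1 or 2 or gcn5 replicate 2 (adjusted p = 0.0542 to 0.2).

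PHO81, the inhibitor of the kinase that holds Pho4 back, gave the firmest difference of the list. Its levels were 1.21 and 1.16 in the spt3 arrays, -0.13, 0.08, -0.05 and 0.01 in the gcn5 arrays, and 0.81, 1.00 and 1.33 as the lowest, median and highest WT value. The spt3 arrays lay among the WT arrays and the gcn5 arrays below them all, a difference of 1.21 ± 0.13, adjusted p = 4.91e-07. PHO5 ran opposite, -2.36 and -2.58 in spt3 and -1.14, -1.71, -0.87 and -0.87 in gcn5, with a difference of -1.32 ± 0.35, adjusted p = 0.0126, and departures from WT of -2.77 (-2.48 within the batch) in spt3 and -1.45 (-1.15 within the batch) in gcn5. VTC2, of the vacuolar polyphosphate synthase, was higher in spt3 by 0.69 ± 0.23, adjusted p = 0.0454. PHO5 lost its call without spt3 replicate 1 or 2 (adjusted p = 0.0656 to 0.146) and VTC2 without spt3 replicate 1 or gcn5 replicate 1, 2 or 4 (adjusted p = 0.0573 to 0.523).

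The mating genes MFA1, BAR1, GPA1, TEC1 and KAR4 were higher in spt3 than in gcn5, where each was lower than WT (adjusted p = 1.65e-08 for MFA1 to 0.00151 for KAR4). Haploid a cells make a-factor from MFA1 and MFA2, sense the partner's alpha factor with the receptor Ste2 and pass the signal through the G protein subunit Gpa1. Of 12 tested pheromone response genes 3 were higher in spt3 (25%, against 6.66% of all genes) and 0 lower, at a median of 0.34, and 2 of 6 a-specific genes were higher (33.3%) and 0 lower, at 0.08. Without gcn5 replicate 2 these counts were the same in number. MFA1 had levels of 1.64 and 1.24 in the spt3 arrays, 0.44, -0.40, 0.26 and 0.25 in the gcn5 arrays, and 1.83, 2.65 and 3.15 as the lowest, median and highest WT value. All mutant arrays were below the lowest WT array, and the gcn5 arrays were the lowest, a difference of 1.30 ± 0.28, adjusted p = 0.00249. MFA2 encodes the same pheromone, and its levels were 2.20 and 1.85 in spt3 and 3.37, 2.72, 3.11 and 3.06 in gcn5. They ran the other way by -1.04 ± 0.42 without passing the threshold (adjusted p = 0.0984). MFA1 lost its call without spt3 replicate 1 (adjusted p = 0.0715).

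GPA1 had levels of 0.99 and 1.27 in the spt3 arrays, 0.10, 0.34, 0.15 and -0.43 in the gcn5 arrays, and 0.93, 1.29 and 1.49 as the lowest, median and highest WT value. The spt3 arrays matched the WT range and gcn5 arrays lay below it, at a difference of 1.09 ± 0.18, adjusted p = 0.000175. BAR1, the protease that destroys alpha factor, differed by 1.12 ± 0.26, adjusted p = 0.0044, and against WT by -0.74 (-0.39 within the batch) in spt3 and -1.86 (-1.51 within the batch) in gcn5. TEC1, an activator of filament formation, and KAR4, needed for nuclear fusion, were higher in spt3 by 0.71 ± 0.21, adjusted p = 0.024, and by 0.49 ± 0.16, adjusted p = 0.0363. STE2 was at -1.08 (-0.96 within the batch) against WT in spt3 and -0.86 (-0.74 within the batch) in gcn5, with no difference past the threshold between the strains (-0.22 ± 0.18, adjusted p = 0.478). BAR1 lost its call without spt3 replicate 1 (adjusted p = 0.0727), TEC1 without spt3 replicate 1 or 2 or gcn5 replicate 3 or 4 (adjusted p = 0.0505 to 0.174) and KAR4 without spt3 replicate 1 or 2 or gcn5 replicate 1 or 4 (adjusted p = 0.0846 to 0.336).

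Amino acid synthesis under the activator Gcn4 split by gene. ARG1, argininosuccinate synthetase and a standard gene for SAGA recruitment by Gcn4, had levels of -0.06 and -0.25 in the spt3 arrays, 2.23, 1.41, 1.79 and 2.16 in the gcn5 arrays, and -1.57, -1.39 and -0.83 as the lowest, median and highest WT value. WT was lowest, spt3 stood between and gcn5 was highest with no overlap, so the difference of -2.05 ± 0.22, adjusted p = 5.23e-07 lay above WT in both strains. Against WT, ARG1 stood at 1.14 ± 0.21 (adjusted p = 0.000767; 1.02 within the batch) in spt3 and 3.19 ± 0.16 (adjusted p = 2.6e-12; 3.07 within the batch) in gcn5. Among 6 tested arginine genes 2 were lower in spt3 (33.3%) and 1 higher (16.7%), at a median of -0.48. Beside ARG1 these were CPA1, for carbamoyl phosphate, at -0.90 ± 0.20, adjusted p = 0.00391, and ARG2, for the first step to ornithine, higher by 0.39 ± 0.12, adjusted p = 0.0249. Among 41 other Gcn4 targets of amino acid synthesis 6 were lower (14.6%) and 2 higher (4.88%), at a median of -0.25, with 1 higher and 9 lower without gcn5 replicate 2. CPA1 lost its call without spt3 replicate 1 (adjusted p = 0.0537) and ARG2 without spt3 replicate 1 or 2 or gcn5 replicate 3 (adjusted p = 0.0703 to 0.162).

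LEU4, the first enzyme of leucine synthesis, was lower, at -1.41 ± 0.21, adjusted p = 5.22e-05, HIS4 of histidine synthesis at -1.32 ± 0.36, adjusted p = 0.0143, and LEU2 at -0.85 ± 0.24, adjusted p = 0.0181. TRP4 of tryptophan synthesis was higher by 1.00 ± 0.16, adjusted p = 0.000175. PCL5, the cyclin that directs Pho85 to destroy Gcn4, had levels of -0.52 and -0.84 in the spt3 arrays, 1.77, 1.26, 1.54 and 1.82 in the gcn5 arrays, and -0.16, 0.78 and 1.43 as the lowest, median and highest WT value. Its spt3 arrays lay below all others, at a difference of -2.28 ± 0.30, adjusted p = 1.39e-05 and, against WT, -1.29 (-1.68 within the batch) in spt3 and 0.99 (0.60 within the batch) in gcn5. Of 14 permease genes 5 were lower in spt3 (35.7%) and 0 higher, among them BAP2 and BAP3 for branched-chain amino acids (-0.80 and -0.72), MUP1 for methionine (-0.77) and TPO1, which exports polyamines (-1.21), with adjusted p = 0.000257, 0.00314, 0.00105 and 4.91e-07. Sulphate assimilation and methionine genes had 4 of 14 lower (28.6%, against 8.07% of all genes) and 0 higher, with MET3, the ATP sulphurylase, at -0.65 ± 0.12, adjusted p = 0.000482. HIS4 lost its call without spt3 replicate 1 or 2 (adjusted p = 0.0779 to 0.146), LEU2 without spt3 replicate 1 or 2 or gcn5 replicate 4 (adjusted p = 0.0575 to 0.219) and MUP1 without spt3 replicate 1 (adjusted p = 0.0601). BAP3 lost its call without spt3 replicate 1 (adjusted p = 0.0925).

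Serine and glycine genes show both directions in 1 short pathway. SER3 makes the first enzyme of serine synthesis, and in rich medium it is kept low by transcription of the noncoding SRG1 across its promoter. Its level was 2.96 and 2.50 in the spt3 arrays, 1.26, 0.42, 1.39 and 1.56 in the gcn5 arrays, and 0.74, 1.11 and 1.40 as the lowest, median and highest WT value. Both spt3 arrays were above every other array, and the gcn5 arrays spread through and around the WT range, at a difference of 1.57 ± 0.26, adjusted p = 0.000249. SER2, the last enzyme of the same route, was higher in spt3 too, with levels of 1.36 and 1.34 in spt3 and 0.40, 0.18, 0.31 and 0.45 in gcn5 and a difference of 1.01 ± 0.11, adjusted p = 1.06e-06, but here the departure from WT was -0.74 (-0.64 within the batch) in gcn5 and 0.27 (0.37 within the batch) in spt3. GLY1, the threonine aldolase that makes glycine, was lower, at -1.33 ± 0.14, adjusted p = 4.91e-07, with -1.08 (-1.01 within the batch) from WT in spt3. SHM2, which joins serine and glycine, was lower, at -1.45 ± 0.45, adjusted p = 0.0319. The list counts 2 higher, 2 lower and 8 not past the threshold of 12 tested (16.7% and 16.7%), at a median of -0.92, with 2 higher and 4 lower without gcn5 replicate 2. SHM2 lost its call without spt3 replicate 1 or 2 or gcn5 replicate 1, 3 or 4 (adjusted p = 0.0667 to 0.219).

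Part of the stress and storage genes were lower in spt3 than in gcn5. Msn2 and Msn4 turn on these genes, which make protective proteins, trehalose and glycogen, when glucose runs short or cells are stressed. Of 23 tested genes 8 were lower in spt3 (34.8%) and 0 higher, at a median of -0.78, with 0 higher and 8 lower without gcn5 replicate 2. DDR2 had levels of -1.50 and -2.13 in the spt3 arrays, 0.70, 0.23, 1.08 and 0.57 in the gcn5 arrays, and -2.11, -0.47 and 1.26 as the lowest, median and highest WT value, and its lowest WT values were again those of replicates 7 and 8. The spt3 arrays were below all gcn5 arrays, at -2.46 ± 0.61, adjusted p = 0.00807, and stood at -1.33 ± 0.57 (adjusted p = 0.135; -2.10 within the batch) from WT in spt3 and 1.13 ± 0.45 (adjusted p = 0.0809; 0.36 within the batch) in gcn5. HSP12, a small membrane-bound heat shock protein, had levels of 1.02 and -0.69 in spt3 and 2.98, 1.59, 2.85 and 2.78 in gcn5. Its arrays do not overlap between the strains but spread within each, and the difference was -2.39 ± 0.67, adjusted p = 0.0184. Against WT, HSP12 stood at -1.32 ± 0.64 (adjusted p = 0.188; -2.11 within the batch) in spt3 and 1.07 ± 0.50 (adjusted p = 0.135; 0.27 within the batch) in gcn5. DDR2 lost its call without spt3 replicate 2 (adjusted p = 0.138) and HSP12 without spt3 replicate 2 (adjusted p = 0.372).

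GLK1, GSY2, GDB1 and RTS3 were above WT in gcn5, with adjusted p = 0.0183 for GLK1 and less for the others. GLK1, glucokinase, had levels of 0.47 and 0.41 in the spt3 arrays, 2.54, 2.31, 2.97 and 2.70 in the gcn5 arrays, and 0.00, 1.50 and 2.53 as the lowest, median and highest WT value. All gcn5 arrays exceeded both spt3 arrays, and WT covered the distance between them, at a difference of -2.19 ± 0.45, adjusted p = 0.00195, with -1.05 (-0.54 within the batch) from WT in spt3 and 1.13 (1.65 within the batch) in gcn5. GSY2, glycogen synthase, had levels of -0.60 and -0.40 in spt3 and 1.10, 1.29, 1.23 and 1.08 in gcn5 against -0.21 to 0.69 in WT. The strains lay on opposite sides of WT, -1.67 ± 0.23 apart (adjusted p = 2.66e-05), as they did in GDB1, the glycogen debranching enzyme (-1.47 ± 0.15, adjusted p = 3.88e-07). RTS3 had levels of -0.94 and -0.73 in the spt3 arrays and 1.08, 1.45, 1.25 and 1.28 in the gcn5 arrays. Its lowest, median and highest WT values were -0.85, -0.55 and -0.30. One spt3 array lay below the WT range and the other inside it, while all gcn5 arrays lay well above, a difference of -2.10 ± 0.15, adjusted p = 6.45e-10.

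Respiration and sugar use followed the same direction with smaller sizes. Of 37 tested genes of the respiratory chain 12 were lower in spt3 (32.4%) and 0 higher, at a median of -0.54, with 0 higher and 13 lower without gcn5 replicate 2. RIP1 and QCR2, of complex III, were lower, at -1.13 ± 0.17, adjusted p = 0.000111, and at -0.89 ± 0.24, adjusted p = 0.016, SDH1, of succinate dehydrogenase, at -1.22 ± 0.24, adjusted p = 0.000975, and CYC7, the minor cytochrome c, at -1.28 ± 0.35, adjusted p = 0.0155. The median of the list against WT was -0.34 in spt3 (-0.67 within the batch) and 0.15 in gcn5 (-0.13 within the batch, so its sign turns with the WT arrays used). Glycolysis and fermentation had 5 of 21 genes lower (23.8%) and 0 higher, with TDH1 at -1.40 ± 0.32, adjusted p = 0.00443, and ENO1 at -1.31 ± 0.32, adjusted p = 0.00644. Hexose transporters had 2 of 5 lower (40%) and 0 higher, HXT3 at -1.39 ± 0.30, adjusted p = 0.00285, and HXT1 at -0.70 ± 0.22, adjusted p = 0.0357. ALD4, the mitochondrial aldehyde dehydrogenase, differed by -0.88 ± 0.16, adjusted p = 0.000437. TDH1 lost its call without spt3 replicate 2 (adjusted p = 0.0999), ENO1 without spt3 replicate 2 (adjusted p = 0.149) and HXT1 without spt3 replicate 1 or 2 or gcn5 replicate 1 or 4 (adjusted p = 0.101 to 0.197). CYC7 lost its call without spt3 replicate 2 (adjusted p = 0.314) and QCR2 without spt3 replicate 1 or 2 (adjusted p = 0.0518 to 0.218).

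**Figure D3:**
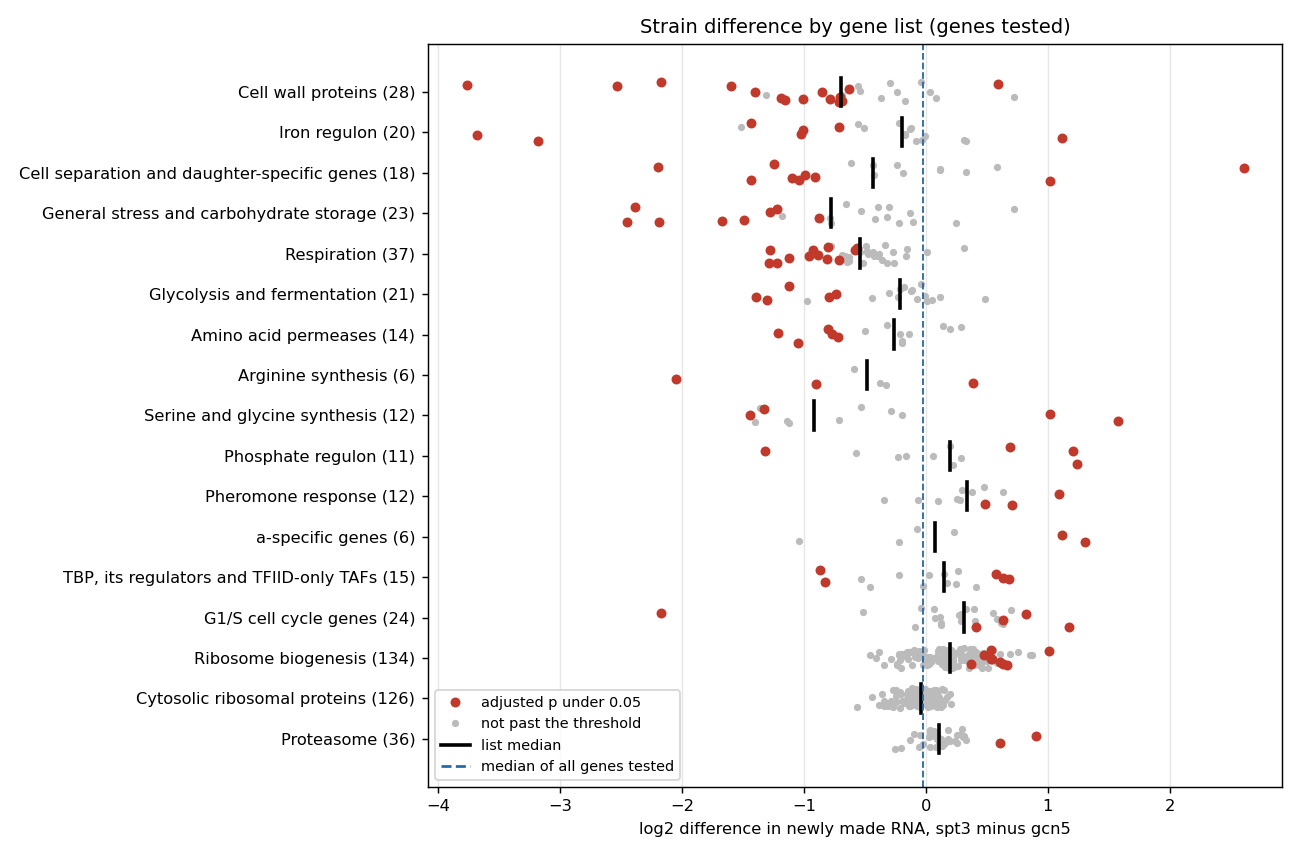
Difference between spt3 and gcn5 in newly made RNA (log2, horizontal axis) for each tested gene of 17 lists (vertical axis, number of genes tested in brackets; SPT3 belongs to none of those drawn), red where the adjusted p was under 0.05, with a black bar at the list median and a dashed line at the median of all genes, -0.02. Cell wall, stress and respiration lists lie to the left with medians of -0.70, -0.78 and -0.54. With all arrays, as drawn, the ribosomal protein list stays within a narrow band around 0, but its median was -0.29 without gcn5 replicate 2.

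Some genes of the TBP machinery differed between the strains. Spt3 is a TBP contact of SAGA, and the general factor TFIID, with TAF1 as its scaffold, is the other main route of TBP to promoters, whereas Mot1 and NC2 take TBP off or hold it inactive. Of 15 tested genes of this list 2 were lower in spt3 (13.3%) and 3 higher (20%), at a median of 0.14; without gcn5 replicate 2 there were 2 higher and 3 lower. MOT1, the ATPase that strips TBP from DNA, had levels of -0.44 and -0.34 in the spt3 arrays, 0.40, 0.65, 0.46 and 0.39 in the gcn5 arrays, and 0.08, 0.56 and 1.09 as the lowest, median and highest WT value. Its spt3 arrays were the lowest, at a difference of -0.87 ± 0.20, adjusted p = 0.00505 and, from WT, -1.04 (-0.82 within the batch) in spt3 and -0.17 (0.05 within the batch) in gcn5. NCB2, a subunit of NC2, was lower, at -0.83 ± 0.15, adjusted p = 0.000653. TAF1 and TAF11 were higher by 0.63 ± 0.14, adjusted p = 0.00285, and by 0.68 ± 0.18, adjusted p = 0.0133. MOT1 lost its call without spt3 replicate 1 (adjusted p = 0.071) and TAF11 without spt3 replicate 2 (adjusted p = 0.226).

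Among the genes for SAGA's own subunits, 15 were tested, of which SPT3 was the lower one and TAF12, shared with TFIID, the higher (0.38 ± 0.11, adjusted p = 0.0194). The other 13 did not pass, and the list median was 0.20. Genes used as models of SAGA promoters had 3 of 25 higher (12%) and 6 lower (24%), a list that includes ARG1, PHO5, PHO84, HO, HIS4, SER3 and PMA1 described here.

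None of 126 tested genes for cytosolic ribosomal proteins passed the threshold of the limma fit, nor did any have an unadjusted p under 0.05 (median -0.04). Without gcn5 replicate 2 the median was -0.29, beside -0.08 over all genes, and still 0 passed. Many of these genes come in near-identical pairs, 23 of them read by shared probe sets. Ribosome biogenesis had 9 of 134 genes higher in spt3 (6.72%, a share near the 6.66% of all genes) and 0 lower, at a median of 0.20. In 58 of these genes (43.3%, against 23.4% of all genes) both spt3 arrays lay above all gcn5 arrays. Against WT, 16 were lower in spt3 and 68 in gcn5, beside 8.64% and 12% of all genes, and none was higher in either. UTP30 and ESF2, which act on the precursor of the small ribosomal subunit, were higher by 1.01 ± 0.17, adjusted p = 0.000305, and by 0.66 ± 0.16, adjusted p = 0.00593. The level of UTP30 was 0.75 and 0.81 in the spt3 arrays, -0.15, -0.24, -0.27 and -0.27 in the gcn5 arrays, and 0.33, 0.96 and 1.31 as the lowest, median and highest WT value, with the spt3 arrays inside the WT range and the gcn5 arrays below it. REX2, an RNA exonuclease, and RMP1, a subunit of RNase MRP, which process noncoding RNA, were among the leading rises. Every gcn5 array lay below every spt3 array in both, as their choice required. Levels of REX2 were 0.73 and 0.81 in spt3 and -0.65, -0.64, -0.52 and -0.27 in gcn5, a difference of 1.29 ± 0.14, adjusted p = 4.91e-07. Levels of RMP1 were 0.23 and 0.50 in spt3 and -0.77, -0.72, -1.13 and -1.08 in gcn5, a difference of 1.29 ± 0.25, adjusted p = 0.000939. SRD1, linked to ribosomal RNA processing, was higher by 1.46 ± 0.30, adjusted p = 0.00176. ESF2 lost its call without spt3 replicate 1 or 2 (adjusted p = 0.053 to 0.0804).

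Of 36 proteasome genes 2 were higher (5.56%, below the 6.66% of all genes) and 0 lower, at a median of 0.10. RPN3, a subunit of the cap, was higher by 0.61 ± 0.11, adjusted p = 0.000737, and RPN4, the activator of these genes, by 0.90 ± 0.25, adjusted p = 0.0184. Cell cycle lists were mixed. Of 24 genes of the G1/S transition 4 were higher (16.7%), CLN1, a G1 cyclin, by 0.82 ± 0.26, adjusted p = 0.0336, and GIN4, a septin kinase, by 1.18 ± 0.27, adjusted p = 0.00453, and 1 was lower, the glucanase EXG1. Of 14 G2/M genes 1 was lower (7.14%, below the 8.07% of all genes), the mitotic cyclin CLB1. It had levels of -1.07 and -0.87 in the spt3 arrays, 0.74, 0.87, 0.74 and 0.55 in the gcn5 arrays, and 0.00, 0.82 and 2.26 as the lowest, median and highest WT value. Its spt3 arrays were the lowest of all, at -1.70 ± 0.39, adjusted p = 0.0044. In the remaining lists, vitamin genes had 1 higher and 5 lower of 12 (8.33% and 41.7%), with SNZ1, of vitamin B6 synthesis, at -1.30 ± 0.21, adjusted p = 0.000198. Sterol genes had 1 higher and 2 lower of 26 (3.85% and 7.69%), with ERG9, squalene synthase, at 0.86 ± 0.18, adjusted p = 0.00244, and ERG25, a sterol oxidase, at -1.11 ± 0.21, adjusted p = 0.000742. The sterol list had 1 higher and 8 lower without gcn5 replicate 2, the G1/S list 7 higher and 1 lower and the G2/M list 2 higher and 1 lower. CLB1 lost its call without spt3 replicate 1 (adjusted p = 0.066), GIN4 without spt3 replicate 1 or 2 (adjusted p = 0.0548 to 0.0552) and CLN1 without spt3 replicate 1 or 2 or gcn5 replicate 1, 3 or 4 (adjusted p = 0.071 to 0.228). RPN4 lost its call without spt3 replicate 1 or 2 (adjusted p = 0.126 to 0.129), ERG25 without spt3 replicate 2 (adjusted p = 0.0552) and ERG9 without spt3 replicate 1 (adjusted p = 0.0537).

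Mitochondrial ribosomal proteins had 2 higher and 3 lower of 72, heat shock chaperones 1 and 1 of 26, oxidoreductases 0 and 1 of 21, histone genes 0 and 1 of 9, and seripauperins 0 and 0 of 6. The mitochondrial list had 2 higher and 1 lower without gcn5 replicate 2, and the seripauperins 0 higher and 1 lower. Apart from the histone list, where 1 gene is 11.1%, the shares with all arrays lie below those of all genes tested. CPR2, a prolyl isomerase of the secretory route, and SPR6, a gene induced in sporulation, were among the leading rises, at 1.26 ± 0.13, adjusted p = 2.98e-07, and 1.26 ± 0.21, adjusted p = 0.000234.

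In 27 of the 602 called genes, of 4087 tested, the strains lay on opposite sides of all WT arrays in newly made RNA, 14 with spt3 below and 13 with spt3 above. Genes not called were not counted. The largest were HO, PRY3, TIR2, GSY2 and GDB1 (all given above), RGS2, PER33 and the uncharacterised YMR181C. Of these, only PRY3 kept opposite sides in total RNA. There the spt3 arrays of HO lay at 1.06 and 1.14, inside the WT range of -0.89 to 1.27. The spt3 arrays of PER33, YMR181C, GSY2, TIR2 and GDB1 lay inside the WT range too, and RGS2 had no value there. RGS2, which turns off the glucose-sensing G protein subunit Gpa2, had levels of -1.87 and -1.81 in the spt3 arrays, 0.30, 0.73, 0.08 and 0.48 in the gcn5 arrays, and -0.89, -0.68 and -0.20 as the lowest, median and highest WT value. The difference was -2.24 ± 0.22, adjusted p = 1.95e-07. PER33, a membrane protein of the endoplasmic reticulum and nuclear pores, had levels of 1.07 and 1.14 in the spt3 arrays, -0.50, -0.79, -0.43 and -0.60 in the gcn5 arrays, and 0.55, 0.78 and 1.04 as the lowest, median and highest WT value. Its gcn5 arrays lay far below WT and its spt3 arrays just above it, at a difference of 1.68 ± 0.13, adjusted p = 2.08e-09. YMR181C differed by -1.77 ± 0.12, adjusted p = 4.47e-10, with -0.58 (-0.65 within the batch) from WT in spt3 and 1.18 (1.12 within the batch) in gcn5.

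Total RNA of the same strains, on other arrays, mostly gave the same directions. There, 681 of 4087 genes differed (16.7%), 391 higher in spt3 (9.57%) and 290 lower (7.10%), beside 16 of 1305 S. pombe genes (1.23%). Of the genes lower in newly made RNA 324 were also measured in total RNA, of which 317 had the same sign and 165 passed the same way, 50% of the newly made list and 58.5% of the total list. Of the higher genes 268 were measured, 259 had the same sign and 131 passed, 48.2% and 33.9% of the respective lists. None passed the opposite way. The shares with the same sign were 97.8% of the lower and 96.6% of the higher genes. Over all 4018 genes measured in both fractions, 57.5% were higher in spt3 in total RNA. The count in total RNA fell to 315 without spt3 replicate 1 and 332 without replicate 2. Both fractions may come from the same cultures, so total RNA repeats the measurement rather than the cells.

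In total RNA the difference was -3.61 ± 0.25, adjusted p = 2.31e-11 for TIR3, -3.32 ± 0.52, adjusted p = 4.85e-05 for FIT2, -2.92 ± 0.19, adjusted p = 1.34e-11 for FET3 and -2.83 ± 0.18, adjusted p = 1.34e-11 for PRY1. HO stood at 2.27 ± 0.38, adjusted p = 0.00012, SER3 at 1.63 ± 0.36, adjusted p = 0.00178, and ARG1 at -1.71 ± 0.41, adjusted p = 0.0046. The sign was the same as in newly made RNA for each of these genes, and the size was larger in total RNA for PRY1 and SER3 and smaller for the others. PHO84 did not pass there (1.77 ± 0.97, adjusted p = 0.234), nor did HSP12 (-0.85 ± 0.35, adjusted p = 0.098) or DDR2 (-1.35 ± 0.50, adjusted p = 0.0643). By list, total RNA had 0 higher and 6 lower of the 20 iron genes (30% lower) and 0 higher and 9 lower of the 28 cell wall genes (32.1% lower). It had 1 higher and 10 lower of the 18 cell separation genes (5.56% and 55.6%) and 0 higher and 6 lower of the 37 respiration genes (16.2% lower). Over all genes tested in newly made RNA these shares were 9.44% higher and 6.9% lower. Other lists did not keep the direction they had in newly made RNA. The 41 other Gcn4 targets had 8 higher and 4 lower (19.5% and 9.76%). Their median turned from -0.25 to 0.17. Medians also turned for glycolysis (-0.22 to 0.24), sulphate and methionine (-0.23 to 0.06) and SAGA model genes (-0.38 to 0.17). In the same order these lists had 0%, 7.14% and 8% higher and 14.3%, 7.14% and 8% lower. Cytosolic ribosomal protein genes, with none called in newly made RNA, had 22 higher (17.5%) and 0 lower, and total RNA medians were 0.33 for these and 0.07 for all genes.

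The 2 fractions themselves differed in their strain difference for 2 of 4018 genes (0.0498%), with 256 at an unadjusted p under 0.05. This limma contrast treats the arrays of both fractions as independent, although they may come from the same cultures. The small count is therefore no measure of how alike the fractions are. TAF1, the TFIID scaffold, was higher in spt3 in newly made RNA, with levels of 0.42 and 0.28 in spt3 and -0.59, -0.14, -0.13 and -0.28 in gcn5. In total RNA its levels were -0.48 and -0.54 in spt3 and 0.13, -0.06, -0.04 and -0.53 in gcn5, a difference of -0.38 ± 0.14, adjusted p = 0.0618. The gap between the fractions was 1.02 ± 0.19 (adjusted p = 0.00789). GET2, a subunit of the complex that inserts tail-anchored proteins into membranes, had levels of 1.22 and 1.19 in spt3 and 1.97, 1.71, 1.91 and 2.00 in gcn5 in newly made RNA. In total RNA the levels were 2.24 and 2.17 in spt3 and 2.20, 2.22, 2.15 and 2.02 in gcn5, which gives a gap of -0.75 ± 0.14 (adjusted p = 0.00686). Both calls were lost when either spt3 replicate was left out, where no gene passed in the limma fit and 141 (without replicate 1) or 131 (without replicate 2) had an unadjusted p under 0.05. When gcn5 replicate 2 was left out, 21 genes passed, 3 with a higher and 18 with a lower difference in newly made RNA, and 1 gene passed without gcn5 replicate 1 or 4.

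**Figure D4:**
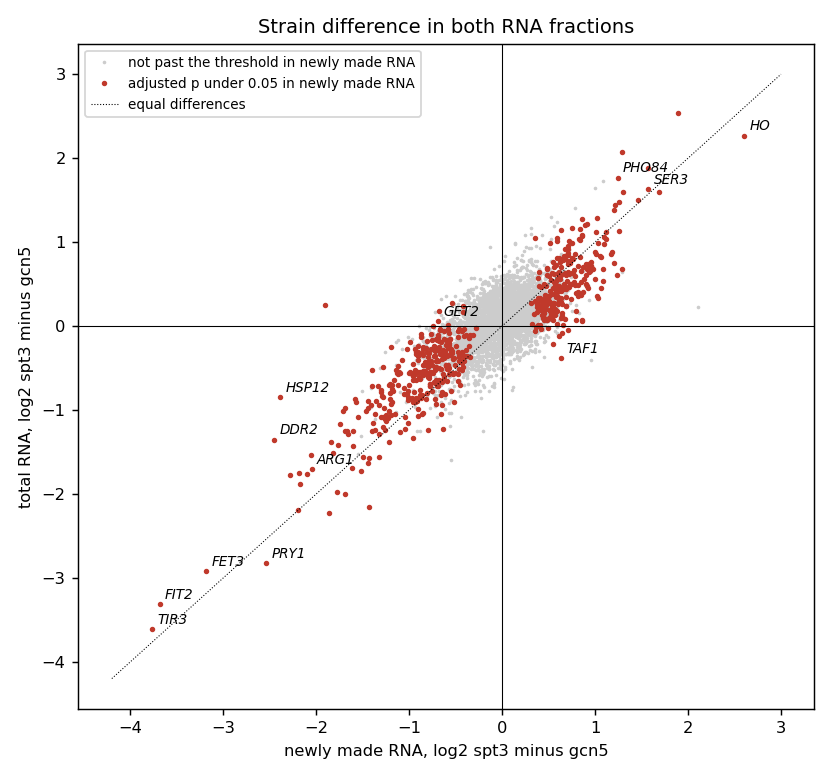
Difference between spt3 and gcn5 in newly made RNA (horizontal axis, log2) against that in total RNA (vertical axis, log2) for the genes measured in both, SPT3 left out, with genes past the threshold in newly made RNA in red and a dotted line at equal differences. Most red points lie in the lower left and upper right; TAF1 and GET2 are the genes whose differences between the fractions passed the test.

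The double mutant spt3_gcn5 and the spt8 strain, which lacks the other TBP-contacting subunit, were measured on 2 arrays each and are set beside the single mutants without a test of the differences. The double mutant shares its batch with WT replicates 7 and 8 only, so its values are taken against those 2 arrays. PHO84 lay at -1.87 and -2.81 in the double mutant and 3.71 and 3.67 in its WT, a change of -6.03, where the single mutants changed by -2.18 (spt3) and -3.42 (gcn5) within their batch. The change is further below 0 than in either single mutant, which was not tested. PRY1 and RGS2, low in spt3, were low in the double mutant as well (-2.89 and -2.50). TIR3 changed by -0.94, less than in spt3. FET3 and FIT2, far below WT in spt3, were not low there: FET3 lay at 2.03 and 2.24 in the double mutant and 1.64 and 1.83 in its WT, a change of 0.40, and FIT2 at 0.00 and -0.09 in the double mutant and -1.89 and -2.03 in its WT, a change of 1.92, from a WT level that was itself low in this batch. SIT1 changed by 1.36.

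HO was below its WT in the double mutant, as in gcn5, at -1.51, with 0.23 and 0.28 in the double mutant and 1.75 and 1.78 in its WT. SER3 rose by 2.06 as in spt3, and MFA1 changed by -2.56, close to the -2.64 of gcn5. In spt8, TIR3 changed by -2.21, FIT2 by -1.84, PRY1 by -1.63, HSP12 by -2.72 and HO by 0.85 from WT, all in the direction of spt3. FET3, at -0.68, changed less than in spt3, and SER3, at -1.07, went the other way. So did YAR068W and IMD2, at -0.70 and -0.82 against 1.30 and 0.13 in spt3. GLK1 and RTS3 did as well, at 0.18 and 0.54 against -0.54 and -0.27. PHO84 changed by 0.04, against -2.18 in spt3. The spt8 and spt3 values share WT replicates 3 to 6.

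**Figure D5:**
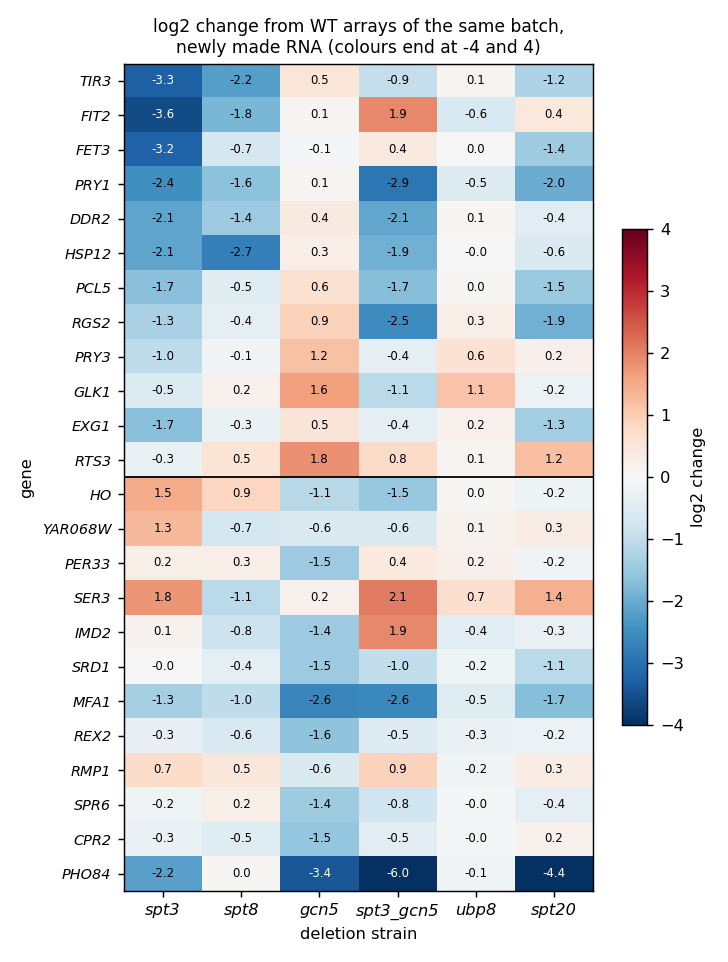
Change of newly made RNA from the WT arrays of the same batch (log2, number and colour in each cell) for the 24 leading genes (vertical axis; lower in spt3 above the line, higher below it) in 6 deletion strains (horizontal axis). WT replicates 3 to 6 serve all strains but spt3_gcn5, whose reference is WT replicates 7 and 8; PHO84 reads -2.2 in spt3, -3.4 in gcn5 and -6.0 in the double mutant, and FET3 -3.2, -0.1 and 0.4.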

How the data were processed

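Array values were deposited for 68 arrays as intensity on a linear scale, which the authors made with Expression Console from Affymetrix (version 1.4.1; per the submitters' processing notes). No source used here states the summary algorithm or any scaling. The arrays hold 10928 probe sets, of which 7244 carry 1 gene name in the probe annotation (5498 S. cerevisiae, 1746 S. pombe), 1 several and 3683 none; 12 symbols were updated from RefSeq. The brightest probe set stood for each of 47 genes that had more than 1.

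Values were turned to log2 and centred on each array's S. cerevisiae median, or S. pombe median for S. pombe genes. The lowest 25% of 5449 S. cerevisiae genes by mean signal were left out, leaving 4087. limma 3.58.1 in R 4.3.3 (lmFit, eBayes) fitted group means over 28 arrays of nascent or 32 of total RNA. The spread was pooled over all these groups, with no batch term. P-values were adjusted by Benjamini-Hochberg over all genes tested, with a threshold of 0.05; ± is the standard error of that fit. WT replicates 1 and 2 were left out, being averages of replicates 3 to 6 in their S. pombe values, as were the nascent arrays of spt7, whose gene order did not match their total RNA. Each array's median was compared by exact permutation. Python 3.11.15 was used with scipy 1.17.1, numpy 2.4.6, matplotlib 3.10.9 and pandas 2.3.3. The signals carry no depth or background value, and the number of arrays limits the precision.

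The comparison, the gene lists and the naming rule were chosen with earlier results of these data known, so no list is independent evidence. Named are the deleted genes; the 12 largest differences each way among called genes whose arrays do not overlap; up to 8 on opposite sides of WT; up to 4 of each list by lowest p; and genes whose fractions differ. The alternatives tried are listed with their effect in the closing section. No sequences are shown, since no table of them was used here.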

Additional observations from a re-analysis of the deposited data

Results flagged for a closer look

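Among 4 gcn5 and 6 WT arrays, a gene's highest or lowest array was singled out where its gap to the next passed Dixon's 95% critical value, which chance does for about 1 in 20 groups. Of the 85 genes checked (the 84 named ones and GCN5), gcn5 replicate 2 was set apart in 10. It was low for TIR3 (0.0221), FIT2 (0.0054), HSP12 (1.59) and YAR068W (-1.55), and the array stood off in TIR2 (-1.13), PIL1 (2.97), TDH1 (2.41), ENO1 (2.99), GIN4 (0.52) and ERG25 (2.57). Over all 4087 genes this array was set apart in 575 (14.1%), against 0.343 to 0.514% for each of the other gcn5 arrays. Its S. pombe profile also stood apart, and its part in each difference was measured by leaving it out, as given with the counts. The other cases were STE2 in gcn5 replicate 1 (1.43), YAR068W and MET3 in WT replicate 6 (-1.40 and -1.34), CPR2 in WT replicate 4 (0.79) and FTR1 in WT replicate 3 (1.67).

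The strain difference of TAF1 and of GET2 differed between newly made and total RNA by 1.02 and -0.75, by a contrast of the joint limma fit.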

How the results depend on the processing

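The count of genes that differed between spt3 and gcn5 in newly made RNA, 602, was within 1.5 times under no filter, a pseudocount of 16, quantile normalization, the mean of probe sets, an eBayes trend, averaged consecutive replicates, a fit of the compared groups alone (796) and leaving out any gcn5 array. Scaling to S. pombe gave 1415 (4 higher, 1411 lower; in total RNA 39, between fractions 0, and for spt3 against WT 3687). Leaving out the lowest 50% of genes gave 316 (total 436, between fractions 1, spt3 against WT 340, gcn5 against WT 495). Batch as a block gave 1239, 1481, 18, 1473 and 1501 in the same order, but also 288 S. pombe genes in place of 3. A fit of the groups alone gave 1685 in total RNA, 1 between fractions, 92 for spt3 and 258 for gcn5 against WT, and 13 S. pombe genes. Averaging consecutive replicates gave 367 for gcn5 against WT, 1 between fractions and 1 S. pombe gene; no filter and the pseudocount gave 19 and 8 S. pombe genes. 3 settings were added after the data were seen: leaving spt20 replicates 1 and 3 out of the fit gave 887 in total RNA, an S. pombe component as covariate gave 1359, 1411 and 1626 for the difference and each strain against WT, and a fit alone without gcn5 replicate 2 gave 1897, with 706 S. pombe genes. The cause of these moves was not tested.

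Leaving out each replicate in turn gave 215 to 707 genes in newly made RNA, 315 to 619 in total RNA, 0 to 21 between fractions, 101 to 203 and 638 to 761 for spt3 and gcn5 against WT and 1 to 14 S. pombe genes. The median shift against S. pombe was -0.69 to -0.57 when an array was left out, and -0.06 without scaling to S. pombe. The spt3 and gcn5 labels share replicate numbers 1 and 2 but do not say that these mark a shared culture or day. With the replicate number as a block the counts were 1064 for the difference, 1296 in total RNA and 20 between fractions. They were 703 and 1089 against WT and 113 for S. pombe genes. Deviations of the same-numbered arrays correlated at 0.41 and 0.66 across genes. Those of spt3 replicate 1 did so at 0.57 and 0.45 with gcn5 replicates 3 and 4. Those of spt3 replicate 2 correlated positively with gcn5 replicate 2 only. Deviations of 2 spt3 arrays mirror each other, and gcn5 replicate 2 stands apart from its group. These values therefore cannot decide whether the numbers mark pairs.

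Of 84 named genes 82 passed the threshold. Leaving out the lowest 50% of genes removed 24 of the 84, so these have no value there. Of the passing genes with a value in every setting, 31 kept sign and call in all but S. pombe scaling, and with the removed genes judged on the other settings, 46 did. That scaling turned KAR4 to -0.17, ARG2 to -0.27, TAF1 to -0.024, TAF12 to -0.27 and RPN3 to -0.0486. Each spt3 array left out cost 26 of the calls: both FIT2 and HSP12 needed spt3 replicate 2, MFA1 and MOT1 needed replicate 1, and PHO84 and HIS4 were lost either way. VTC2 lost its call without gcn5 replicate 1, 2 or 4, and HXT1 without replicate 1 or 4. The signals carry no background value, so how far low genes are compressed is not known here.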
